A study of Mus musculus with 6 samples.

Results

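Lymphoid priming is the low-level transcription of lymphoid genes in multipotent blood progenitors, and it was followed here through 9 gene names: Flt3, Satb1, Dntt, Il7r, Rag1, Rag2, Ighm, Cd27 and Ikzf1. Every probe other than a control whose gene name on the array equals 1 of these was taken, whatever its signal. That gave 15 probes under 8 gene names, of 55681 probes under 34650 gene names on the array. No spot carries the gene name Ighm. A probe described on the array as immunoglobulin heavy constant mu is given beside the members and is not counted among them. Of the 8 gene names found, 5 were tested through 10 probes: Flt3, Satb1, Dntt, Cd27 and Ikzf1. The other 3, Il7r, Rag1 and Rag2, were not well above background on any array.

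The study compared bone marrow cells of wild-type mice (WT) with those of mice labelled Spred1 KO (KO), Spred1 being an inhibitor of signalling from receptor tyrosine kinases through Ras and ERK. Both genotypes are labelled C57BL/6, and there were 3 samples of each. The cells were sorted as c-Kit+, Sca-1+, lineage marker- and CD48-, a gate that enriches for blood stem cells and early multipotent progenitors, and each sample's RNA was hybridised to 1 array with a single dye. How the allele was made, and the age and number of the animals, are not given in the sources used here, nor do the labels say that the samples came from separate animals, so each p-value reflects only how these samples vary, in part perhaps for technical reasons. In sorted bulk RNA, fewer cells of a type and less RNA per cell cannot be told apart.

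As background, multipotent progenitors that raise the receptor FLT3 on their surface lose megakaryocyte and erythroid potential and begin to transcribe lymphoid genes. The zinc finger factor Ikaros, encoded by Ikzf1, and the chromatin organiser SATB1 act upstream of this step. Terminal transferase (Dntt), the RAG recombinase (Rag1, Rag2) and the IL-7 receptor (Il7r) mark the cells that follow, and most progenitors with much surface FLT3 also carry CD48, which this gate leaves out.

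The probes are 60 bases long and read in the sense of the transcript. Their last 30 bases are printed 5′ to 3′ for the members measured above background, because the several probes of Flt3, Cd27 and Ikzf1 report different stretches of their genes and do not share one level. Probes are numbered by start position on build mm9. Capitals mark the polyadenylation signal AATAAA, searched on the printed strand only. It occurs in the Dntt probe alone of the 16 described here and in 10.1% of all probes.
Flt3 probe 1: ttctataaaatcaaacctctcctcgcacag
Flt3 probe 2: taaacatatgtagtaaagtgtatttactgt
Flt3 probe 3: gtgaacagagaggcctggaggatgggtaca
Satb1: caccttgtgttcactcagacaaaccttcat
Dntt: tgtctgaatctctgtgtattgccAATAAAa
Cd27 probe 1: agctgacaaaactacatgccaggggtggaa
Cd27 probe 2: atactcaacaaactgcccttctgagaccaa
Ikzf1 probe 1: gctgtctcttaacctagaattatgtgggtg
Ikzf1 probe 2: aggacaggtacgagttctcatcccatatca
Ikzf1 probe 3: actcactgtgaataagtgtgaccagatatt
heavy constant mu: taacaggaaggaatttgtgcgtactgtgac

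The 6 arrays were close to each other, with pairwise correlations of 0.988 to 0.995 across the tested genes, each read by its brightest probe. Of all probes on the array, 51.4% to 52.6% were well above background. Spred1 itself was read by 3 probes on chromosome 2, named here by the last listed position of each (mm9), and they did not move alike. The probe at 117005011 gave 0.85, 0.74 and 0.73 in the WT and 0.78, 0.56 and 0.57 in the KO. The probe at 117005965 differed by -0.98 ± 0.09 (adjusted p = 0.0543, limma), and the probe at 116998550 was higher in the KO by 2.44 ± 0.16 (adjusted p = 0.0133, limma). Which stretch was removed in these mice is unstated in the labels. The probes at 117005965 and 116998550 separate all KO from all WT arrays, and none of the 3 shows loss of the whole transcript. The gate genes Kit, Ly6a (Sca-1), Cd34 and Ptprc (CD45) were well above background on all 6 arrays, and so was Cd48, the marker the sort selects against. Kit, Ly6a, Cd34, Cd48 and Ptprc differed by -0.09 to 0.12 between genotypes. Slamf1 (CD150), a stem cell marker outside the sort, differed by -0.56 ± 0.22 (adjusted p = 0.400, limma). WT replicate 1 stood apart in neutrophil genes: the summed signal of 10 such genes was 102 times the array's 75th percentile there, against 336 to 527 times on the other arrays. Each member's difference is therefore also given without this sample, as are the list counts. The arrays lay on 2 slides, with replicates 1 and 2 of both genotypes on slide 1 and replicate 3 of both on slide 2.

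None of the 5 tested members passed the threshold of limma with Benjamini-Hochberg adjustment (adjusted p under 0.05), which 4 of all 19610 genes did, or 0.0204%. Their adjusted p ran from 0.363 to 0.652. Flt3, Satb1 and Ikzf1 measured higher in the KO at an unadjusted p under 0.05, which 7.06% of all genes did in that direction, and no member measured lower at that level, as 5.12% of all genes did. In those 3 genes every KO sample lay above every WT sample, as in 9.52% of all genes. In Cd27 every KO sample lay below every WT sample, as in 10% of all genes, and in Dntt the genotypes overlapped. The median difference over the 5 genes was 0.42 on the log2 scale, against -0.0063 over all genes. The members were chosen with earlier results of these data known, so these comparisons with all genes describe the group and do not test it. Leaving out WT replicate 1 left Flt3 and Satb1 at an unadjusted p under 0.05, when 7.88% of all genes were, in either direction. Within slide 1 none of the 5 was, when 5.75% of all genes were.

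**Figure D1:**
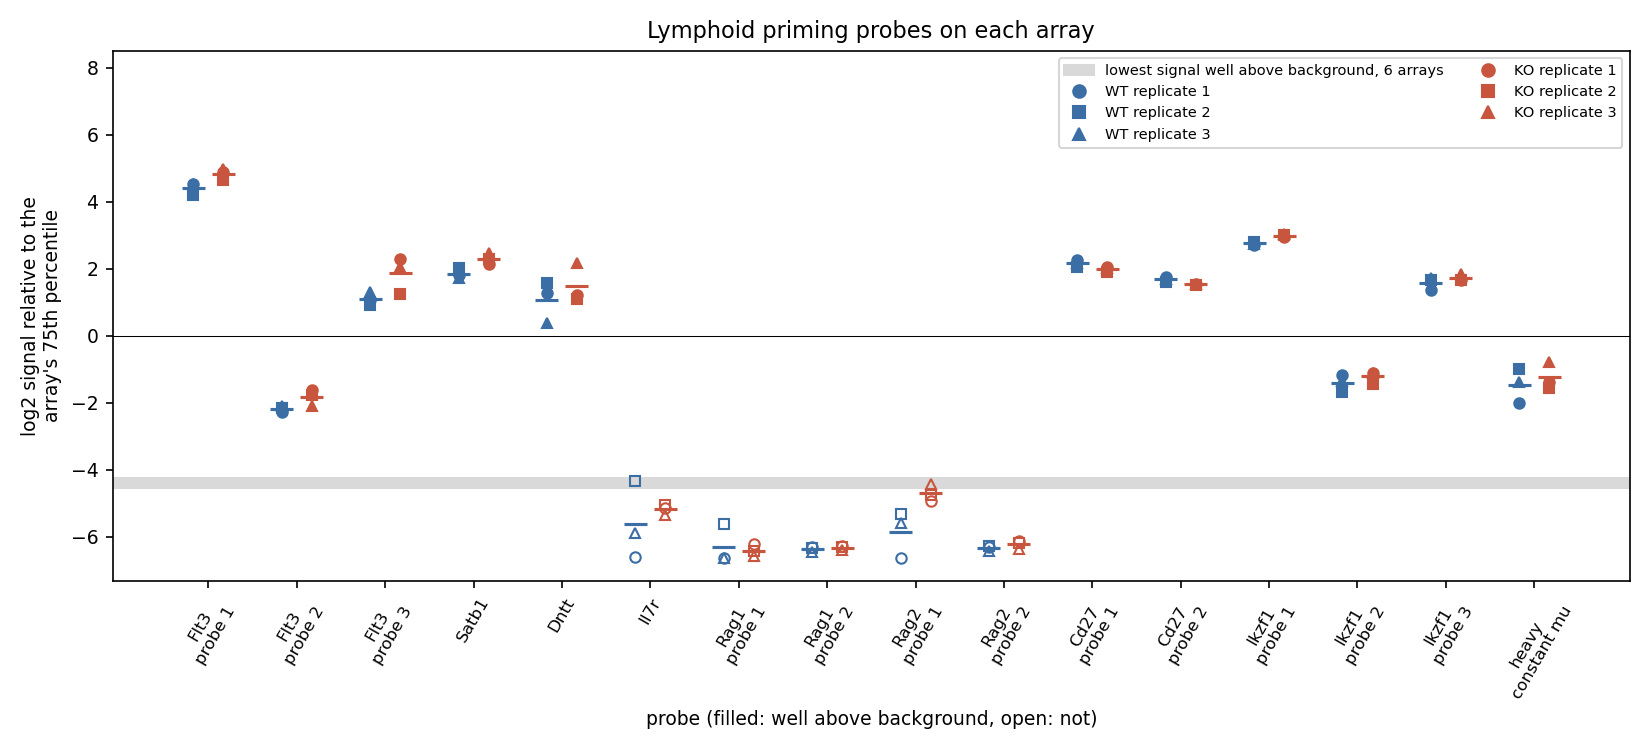
Log2 signal relative to the array's 75th percentile (vertical axis) for each probe (horizontal axis, numbered by start position) on the 3 WT (blue) and 3 KO (red) arrays, with a bar at each mean. Filled symbols are well above background and open ones are not; all probes of Il7r, Rag1 and Rag2 are open. The grey band, -4.53 to -4.23, spans the 6 arrays' lowest signals called well above background, and no open point lies above it.

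Flt3 encodes the receptor tyrosine kinase for FLT3 ligand, and it was read by 3 probes spread over 35.9 kb of chromosome 5, minus strand. Values are log2 signals relative to the array's 75th percentile, so that 0 equals that percentile, and they are given in the order of replicates 1, 2 and 3. Probe 1 (chr5:148142576-148142635, mm9) gave 4.52, 4.21 and 4.52 in the WT and 4.89, 4.65 and 4.97 in the KO. All 3 KO values lay above all 3 WT values. The difference was 0.42 ± 0.13 (SE, n = 3 per genotype), or 1.34-fold with a 95% interval of 1.08 to 1.66. Its adjusted p in limma was 0.370, and 789 genes had a smaller p. An exact permutation test, two-sided, gave p = 0.1, the smallest that 3 samples against 3 allow.

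The other Flt3 probes also had higher KO means, but their genotypes overlapped. Probe 2 (chr5:148174133-148174192), which the array assigns to a brain cDNA clone and not to the RefSeq transcript, gave -2.28, -2.17 and -2.09 in the WT and -1.63, -1.75 and -2.09 in the KO. KO replicate 3 lay at the level of the highest WT sample, and the difference was 0.36 ± 0.14, or 0.30 without WT replicate 1. Probe 3 (chr5:148178496-148178555) gave 1.08, 0.92 and 1.31 in the WT and 2.28, 1.25 and 2.05 in the KO. KO replicate 2 lay below WT replicate 3, while KO replicates 1 and 3 lay above every WT sample. The difference of probe 3 was 0.76 ± 0.27, or 1.69-fold with an interval of 1.09 to 2.62, with an adjusted p in limma of 0.401 over 27808 probes. Without WT replicate 1, probe 3 differed by 0.74, and without KO replicate 2 by 1.06. Probe 1 differed by 0.47 without WT replicate 1 (unadjusted p = 0.0207, adjusted p = 0.588 in limma).

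Satb1, which encodes a nuclear protein that folds chromatin into loops at lymphoid gene clusters, had the smallest p of the members. Its probe (chr17:51879137-51879196, minus strand) gave 1.80, 2.01 and 1.72 in the WT and 2.15, 2.29 and 2.47 in the KO. The groups did not overlap, the nearest samples being WT replicate 2 and KO replicate 1. The difference was 0.46 ± 0.12, or 1.38-fold with an interval of 1.13 to 1.68, and the adjusted p in limma was 0.363. There were 384 genes with a smaller p. It measured 0.32 within slide 1 and 0.75 on slide 2, where 1 sample of each genotype was available. Without WT replicate 1 it was 0.44 (unadjusted p = 0.0240, adjusted p = 0.597 in limma).

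Ikzf1 encodes Ikaros, the zinc finger factor that opens and silences lymphoid loci together with the NuRD complex. Its 3 probes lie within 11.5 kb of chromosome 11, plus strand. Probe 1 (chr11:11661344-11661403), assigned to an Ensembl transcript, gave 2.71, 2.81 and 2.75 in the WT and 2.95, 3.0 and 3.03 in the KO. The samples of each genotype lay close together, with SDs of 0.049 in the WT and 0.041 in the KO, and the groups did not overlap. The difference was 0.23 ± 0.08, or 1.18-fold with an interval of 1.03 to 1.34, with an adjusted p in limma of 0.378. Leaving out WT replicate 1 gave 0.21 and took the unadjusted p from 0.0208 to 0.0583.

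The other Ikzf1 probes had overlapping genotypes. Probe 2 (chr11:11669493-11669552) gave -1.19, -1.69 and -1.35 in the WT and -1.11, -1.43 and -1.10 in the KO, a difference of 0.20 ± 0.16. That difference was 0.31 without WT replicate 1 and 0.058 without WT replicate 2. Probe 3 (chr11:11672828-11672887) gave 1.36, 1.66 and 1.71 in the WT and 1.66, 1.65 and 1.84 in the KO. WT replicate 1 alone lay low on probe 3, and the difference of 0.14 ± 0.12 was 0.033 without that sample.

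**Figure D2:**
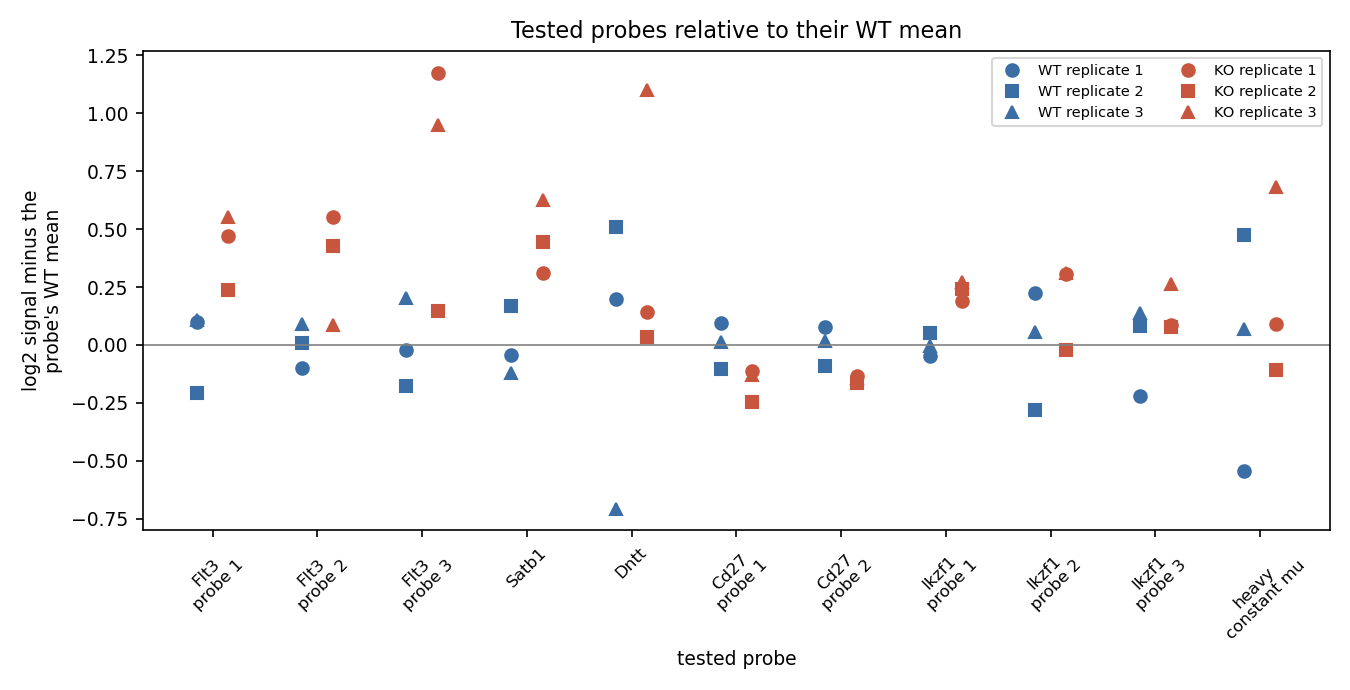
Log2 signal of each tested probe minus its WT mean (vertical axis) on the 3 WT (blue) and 3 KO (red) arrays, with a symbol shape per replicate number. The KO points lie above all WT points for Flt3 probe 1, Satb1 and Ikzf1 probe 1 and below them for both Cd27 probes, while Dntt has its lowest point in WT replicate 3 and its highest in KO replicate 3.

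Cd27 encodes a receptor of the TNF receptor family that binds CD70 and is carried by early lymphoid progenitors. It was the only tested member with a lower mean in the KO. Probe 1 (chr6:125183076-125183135, minus strand) gave 2.26, 2.05 and 2.17 in the WT and 2.05, 1.91 and 2.03 in the KO. The groups all but touched, since WT replicate 2 and KO replicate 1 round to the same value. The difference was -0.16 ± 0.09, a ratio of 0.893 with an interval of 0.768 to 1.04, and the adjusted p in limma was 0.489. Probe 2 (chr6:125183200-125183259), 0.124 kb away, gave 1.76, 1.60 and 1.71 in the WT and 1.55, 1.52 and 1.54 in the KO. All 3 KO values lay below the WT values there too, with a difference of -0.15 ± 0.09. Without WT replicate 1 the differences were -0.12 on probe 1 and -0.11 on probe 2.

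Dntt encodes terminal deoxynucleotidyl transferase, which adds untemplated bases at V(D)J junctions. Its probe (chr19:41133936-41133995, plus strand) gave 1.27, 1.58 and 0.37 in the WT and 1.21, 1.11 and 2.17 in the KO. The signal was well above background on all 6 arrays, and the lowest and the highest sample were both replicate 3, on slide 2. The difference of 0.43 ± 0.39 had a 95% interval of -0.51 to 1.36, and its adjusted p in limma was 0.652. Without WT replicate 3 the difference was 0.072, without KO replicate 3 it was 0.088, and leaving out WT replicate 1 gave 0.52. It was -0.26 within slide 1 and 1.81 on slide 2, so its direction differed between the slides.

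The recombinase and IL-7 receptor genes were not well above background on any of the 6 arrays, so their genotypes are not compared. Il7r, the receptor chain shared by IL-7 and TSLP (chr15:9435976-9436035, minus strand), gave -6.61, -4.32 and -5.87 in the WT and -5.13, -5.06 and -5.34 in the KO. Rag1, the catalytic subunit of the recombinase, had probes at chr2:101478813-101478872 and chr2:101481051-101481110 (minus strand), with values between -6.63 and -5.62. Rag2, its partner, was read at chr2:101470723-101470782 (plus strand) as -6.64, -5.30 and -5.58 in the WT and -4.92, -4.75 and -4.43 in the KO. No array called this Rag2 probe well above background, so no fold is given although the KO values lay above the WT values. The other Rag2 probe (chr2:101472445-101472504), printed as 10 spots per array, lay between -6.42 and -6.11, and 0 of its 59 usable spots was well above background. The Rag genes lie 15.5 Mb below Spred1 on chromosome 2.

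The probe for the heavy chain constant region mu (chr12:114659630-114659689, minus strand) was well above background in 59 of 59 usable spots. It gave -2.00, -0.98 and -1.39 in the WT and -1.37, -1.56 and -0.77 in the KO. The genotypes overlapped, and WT samples differed among themselves by more than the spots of 1 array, whose SD was at most 0.148. The difference was 0.22 ± 0.30 with an adjusted p in limma of 0.771, and without WT replicate 1 it was -0.049. No genotype difference was detected on this probe with 3 arrays each.

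**Figure D3:**
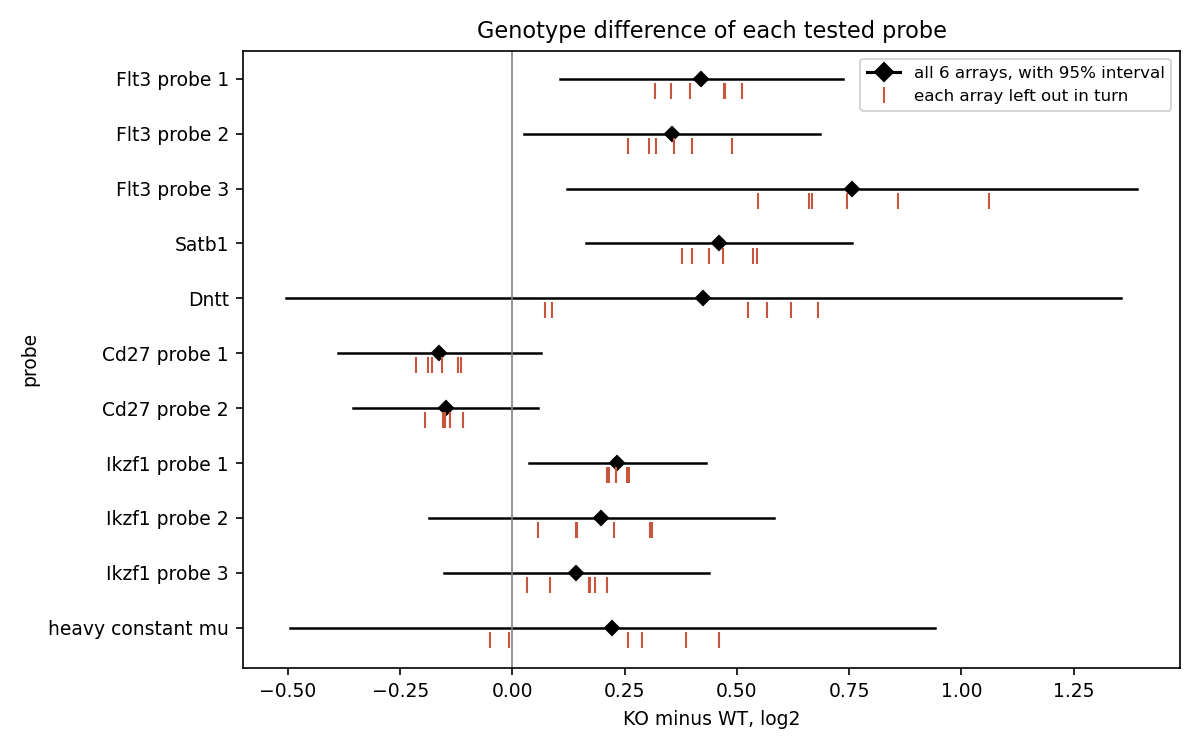
Difference between genotypes, KO minus WT, on the log2 scale for each tested probe, with its 95% interval from limma (black) and the value with each array left out in turn (red ticks). The intervals of Dntt, both Cd27 probes, Ikzf1 probes 2 and 3 and the heavy constant mu probe include 0. None of the probes shown, with or without 0 in the interval, passed after adjustment over 27808 probes.

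By probe, none of the 10 tested member probes passed, against 0.0324% of all 27808 probes, and their adjusted p in limma ran from 0.390 to 0.668. All 3 Flt3 probes, the Satb1 probe and Ikzf1 probe 1 measured higher at an unadjusted p under 0.05, as 6.72% of all probes did, and none measured lower at that level, as 4.73% did. In 3 probes (Flt3 probe 1, Satb1 and Ikzf1 probe 1) every KO sample lay above every WT sample, as in 9.23% of all probes, and in both Cd27 probes every KO sample lay below, as in 9.45%. Leaving out WT replicate 1 kept Flt3 probe 1 and Satb1 at an unadjusted p under 0.05 (adjusted p = 0.627 and 0.642 in limma). Flt3 probes 2 and 3 and Ikzf1 probe 1 were then above it (adjusted p = 0.706, 0.674 and 0.683 in limma). Probes of 1 gene share their samples and transcripts and are not independent of each other. The higher mean was in the KO for 8 of the 10, against 49.7% of all probes. Because the members were chosen with earlier results of these data known, these shares do not test the group either.

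The tested members did not all move alike over the 6 arrays, since Cd27 measured lower in the KO and the others higher. Likeness was measured as the root mean square distance between 2 genes' 6 centred log2 values, and it includes the genotype difference. It also depends on how much each gene varies. Cd27 and Ikzf1, which differed in opposite directions, lay at 0.223, and Flt3 and Satb1 at 0.217. Among the members Satb1 and Ikzf1 were closest, at 0.149, followed by Flt3 and Ikzf1 at 0.185. Dntt lay at 0.395 to 0.583 from each of the others. Of 13016 genes with a current symbol, the nearest to Flt3 was Tmem156 at 0.063, to Satb1 Gpr162 at 0.045, to Ikzf1 Gm10777 at 0.025, to Cd27 Nfe2 at 0.019, and to Dntt Sdc1 at 0.122. Every member had genes outside the group nearer to it than any other member. With 13016 genes searched against so few members that was likely from the start, so nothing is concluded from it. These distances are descriptions over 6 arrays that all genes share.

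Other genes of the lymphoid programme were described in 8 lists. No gene of any list passed the adjusted threshold in limma, so the values are given as measured. Genes are named by their small p within a list, so they were picked for their differences. Across all genes the genotypes did not overlap in 19.5%, in either direction, and 48.8% had a higher mean in the KO. An unadjusted p under 0.05 in limma was reached by 12.2% of all genes, and by 0% to 15% of the tested genes of a list. Among 20 early lymphoid receptors and adhesion genes the mean was higher in the KO for 14 and lower for 6, with a median of 0.072. That split became 12 to 8 with a median of 0.022 without WT replicate 1, and 11 to 9 with a median of 0.024 within slide 1. Notch1, the receptor that directs progenitors to the T lineage, gave -1.07, -0.35 and -0.55 in the WT and -0.04, -0.07 and 0.12 in the KO. All 3 KO values lay above the WT values, and the difference was 0.66 ± 0.19 (adjusted p = 0.363, limma). Without WT replicate 1, its lowest sample, the Notch1 difference was 0.45. Il6st, the gp130 chain of the IL-6 receptor family, differed by -0.45 ± 0.10 with the KO below the WT in every sample, and by -0.41 without WT replicate 1. Cnr2, a cannabinoid receptor of lymphoid cells, differed by 0.29 ± 0.09 in the other direction, and by 0.24 without that sample.

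Lymphoid transcription factors were split, with 16 of 29 tested genes higher and 13 lower and a median of 0.021. The list had no settled direction, since without WT replicate 1 it was 14 higher to 15 lower with a median of -0.013. Foxp1, a forkhead factor of early B cell development, had 4 probes that differed by 0.18 to 0.30, with 0.25 ± 0.10 on the brightest and 0.17 there without WT replicate 1. Gfi1, a repressor active in stem cells and lymphoid progenitors, differed by -0.32 ± 0.14 with overlapping genotypes, and by -0.21 without WT replicate 2. Bach2, a repressor that favours lymphoid over myeloid genes, differed by 0.24 ± 0.11, also with overlap.

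Of 18 genes for V(D)J joining and DNA end joining, 13 measured lower in the KO, with a median of -0.079, and 12 did without WT replicate 1, with a median of -0.071. At an unadjusted p under 0.05 in limma were 2 of the 18, or 11.1%, against 12.2% of all genes. Without overlap, 3 of the 18 lay lower in the KO, as 10% of all genes did, and 1 higher, as 9.52% did. Lig4, the ligase that seals the joined ends, gave -2.00, -1.96 and -1.88 in the WT and -2.59, -2.40 and -2.29 in the KO. The groups did not overlap, and the difference was -0.48 ± 0.10 (adjusted p = 0.359, limma), or -0.50 without WT replicate 1. Prkdc, the catalytic subunit of the DNA-dependent protein kinase, differed by -0.37 ± 0.11, also without overlap, and by -0.39 without that sample. The enzyme Dntt, which acts in the same reaction, had the wide interval given above.

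The chromatin list holds genes whose products bind Ikaros or SATB1. Of 17 tested chromatin partners of Ikaros and SATB1, mainly NuRD subunits, 16 had a lower mean in the KO and 1 a higher one, with a median of -0.12. The split was the same without WT replicate 1 and under 3 other scalings of the arrays, and was 14 lower to 3 higher within slide 1. Mta2, a NuRD subunit, differed by -0.20 ± 0.08 without overlap. Rbbp4, a histone-binding subunit, differed by -0.18 ± 0.09 on its brighter probe and by 0.21 ± 0.34 on the other. Across all genes 48.8% had a higher mean in the KO. The list's genes share samples and are not independent, and only 1 of the 17 was at an unadjusted p under 0.05, against 12.2% of all genes in either direction.

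In the list of FLT3 and IL-7 receptor signalling, 12 of 19 tested genes measured lower in the KO, with a median of -0.034, but 9 of 19 with a median of 0.0034 after quantile normalisation. Leaving out WT replicate 1 gave 13 of 19 with a median of -0.045, and leaving out WT replicate 2 gave 10 of 19 with a median of -0.0019. Socs2, a feedback inhibitor induced by STAT5, stood farthest out. It gave 1.15, 0.65 and 0.79 in the WT and -0.34, 0.14 and -0.54 in the KO. Every KO sample lay below every WT sample, by -1.11 ± 0.21 on the brightest probe, and the other probes gave -1.12 and -1.01. Its adjusted p in limma was 0.352 over all genes, and the difference was -0.97 without WT replicate 1. Jak3, the kinase bound by the common gamma chain, differed by -0.26 ± 0.12, and by -0.14 without KO replicate 1. Ptpn11, the phosphatase SHP2, differed by -0.18 ± 0.09.

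**Figure D4:**
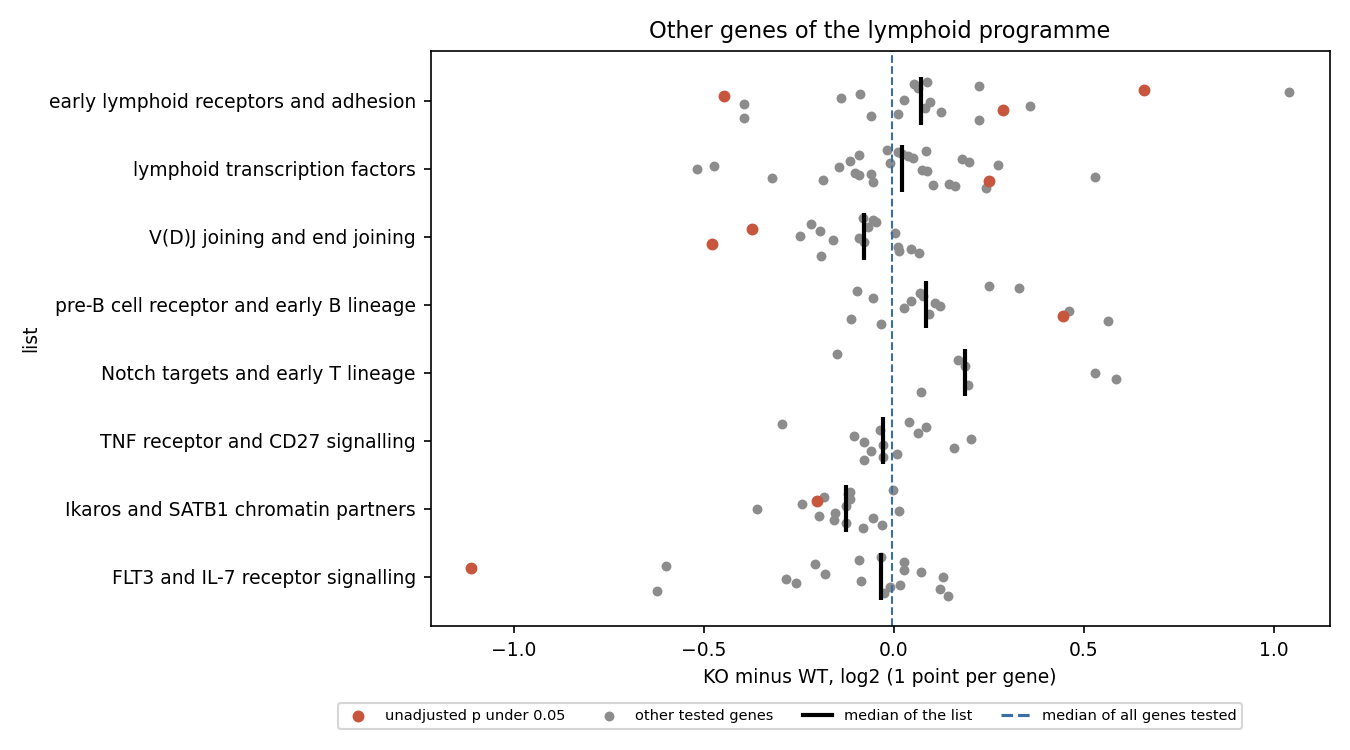
Difference between genotypes, KO minus WT, on the log2 scale (horizontal axis) for the tested genes of 8 lists (vertical axis), 1 point per gene, with the list's median as a black bar and the median of all genes as a dashed line. Socs2 is the leftmost point at -1.11, and 16 of 17 chromatin partners lie to the left of 0.

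The next lists hold genes of the lineages that lymphoid priming leads to. Of 21 genes of the pre-B cell receptor and early B lineage, 16 were tested, and 12 measured higher in the KO with a median of 0.084. Without WT replicate 1 the split was 7 higher to 9 lower and the median -0.0097. Cd22, an inhibitory receptor of B cells, differed by 0.44 ± 0.12 without overlap, and by 0.39 without WT replicate 1. Of 14 Notch target and early T lineage genes only 7 were tested, 6 of them higher in the KO, with a median of 0.19. Of the 7, 5 were higher without WT replicate 1, with a median of 0.15, all 7 without KO replicate 1, with a median of 0.45, and 4 without either KO replicate 2 or WT replicate 3. Cd5, a T and B cell surface protein, differed by 0.59 ± 0.32 with overlap, but by 0.29 without KO replicate 3, its highest sample. Its difference was 0.14 within slide 1 and 1.47 on slide 2. TNF receptor and CD27 signalling genes were split 6 higher to 8 lower with a median of -0.028, and 7 to 7 after quantile normalisation. Leaving out 1 array moved this split between 3 to 11 (without KO replicate 3) and 8 to 6 (without KO replicate 2 or WT replicate 2), and it was 4 to 10 without WT replicate 1. The adaptor Traf3 differed by -0.29 ± 0.14, but by -0.15 without KO replicate 3, its lowest sample, and by -0.18 within slide 1.

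Markers of other cells that the gate could hold were summed per array as multiples of its 75th percentile. B cell markers summed to 11.8 to 15.2 in the WT and 12.9 to 15.9 in the KO. Of the 13 on the array, 6 were well above background on all 6 arrays, and Cd79b made up 62.5% of the sum. Ebf1, Pax5 and Igll1, which define the committed B lineage, were not well above background on any array. T cell markers summed to 12.9 to 14.3 and 14.1 to 15.2, with Bcl11b, Tcf7, Cd3g, Cd8a and Il2ra not above background on any array. Of the 13 T cell markers on the array, 5 were well above background on all 6 arrays, and Lck made up 43.6% of the sum. Natural killer and innate lymphoid markers summed to 9.56 to 12.3 and 10.2 to 11.5, and Nkg7 made up 73.8% of the sum. Of these 10 markers, 4 were well above background on all 6 arrays, and Eomes, Klrd1, Ncr1 and Tbx21 on none. Plasmacytoid dendritic cell markers summed higher in every KO sample, 162 to 188 against 192 to 220, and the lectin gene Siglech made up 86.5% of that sum. Of the 8, 6 had a higher mean in the KO, with a median of 0.20, and 5 did without WT replicate 1, with a median of 0.063. Monocyte and macrophage markers also summed higher in every KO sample, 40.0 to 42.7 against 44.2 to 50.5, with 82.8% of the sum from the integrin gene Itgam. Of the 9 tested, 7 had a higher mean in the KO and 2 a lower one, with a median of 0.26. Without WT replicate 1 the split was 3 higher to 6 lower, with a median of -0.12. Neutrophil markers overlapped, at 102 to 527 in the WT and 336 to 440 in the KO, but only through WT replicate 1. WT replicates 2 and 3, at 527 and 492, lay above every KO sample. With all arrays 8 of the 10 neutrophil genes had a higher mean in the KO, with a median of 0.37. Without WT replicate 1 all 10 had a lower one, with a median of -0.47. Whether these cells had a part in the Flt3, Satb1 and Ikzf1 values was not tested.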

How the data were processed

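The scanner software was Agilent Feature Extraction 10.7.3.1, per the submitters' processing notes. The processed signal is an intensity corrected for background within each array, per the file headers. The authors' deposited value table holds these intensities divided by 1 constant per array and was used as an alternative. Here, 3671 of 62976 spots were left out as controls, outlier spots were dropped, and values were log2 intensities minus the array's 75th percentile. Spots of a probe were averaged (outlier marks removed 1 Rag2 spot in KO replicate 2 and 1 heavy constant mu spot in KO replicate 3). Each gene name took its brightest probe, and a feature was kept if all 3 arrays of either genotype called it well above background. KO was compared with WT in limma 3.58.1 (R 4.3.3, lmFit and eBayes) with Benjamini-Hochberg adjustment over 19610 genes or 27808 probes. The fit was also run on simulated data. How often it recovers differences as small as those of the members is not reported here. Gene values come from the gene fit and other probes' values from the probe fit. Exact permutation tests are two-sided.

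Gene names come from the array's annotation and may be old. Of the 15 member probes, 13 were found by accession in a RefSeq table (GRCm38.p6), all with an unchanged symbol. Positions are from the files (mm9). Exons, introns and UTRs were not assigned. Probe sequences are those in the scanner files. The members and lists were chosen with earlier results of these data known. Named were all members, in each list the genes that pass or else the 3 of smallest p (some are not printed), the gate genes, and for each tested member the nearest of 3 genes by likeness. Alternatives were background correction, quantile normalisation, the deposited table, filters, slide, replicate block, the mean of a gene's probes and each array left out. The number of arrays limits the precision.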

Additional observations from a re-analysis of the deposited data

How the results depend on the processing

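Across 15 alternatives per gene and 14 per probe, no member passed the adjusted threshold in limma, and Flt3 (0.32 to 0.51), Satb1 (0.32 to 0.54), Ikzf1 (0.19 to 0.28, the lowest from the mean of its probes) and Cd27 (-0.22 to -0.12) kept their direction. Leaving out 1 array gave 0.072 to 0.68 for Dntt, which reversed to -0.26 within slide 1, and -0.049 to 0.46 for the heavy constant mu probe, which reversed when WT replicate 1 (-0.049) or KO replicate 3 (-0.0083) was left out. The cause was not tested.

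The count of all genes past the threshold was 4, and that of probes 9. It was 10 genes and 15 probes with normexp, 1 gene with quantile normalisation, 1 gene and 3 probes with only features well above background on all 6 arrays, and 9 genes with the mean of a gene's probes. With no filter it was 0 of either (2625 genes and 3856 probes at an unadjusted p under 0.05 in limma, the one tool run). Within slide 1 it was 1 gene and 0 probes (1592 probes unadjusted). Leaving out 1 array gave 0 to 4 genes (1545, 2552 and 3048 unadjusted at the counts of 0, without WT replicate 1, WT replicate 2 and KO replicate 2) and 0 to 5 probes (4230 unadjusted at the count of 0, without KO replicate 2).

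With the replicate number as a block, 0 genes and 0 probes passed (2138 and 2916 unadjusted). Over the tested genes, deviations of same-numbered samples correlated at -0.025, 0.15 and 0.071. Taken over those genes, this gives no sign that the numbers pair the samples beyond the slide that replicate 3 of both genotypes shares. Single members varied in this. The replicate block lowered the SE of Flt3 from 0.130 to 0.089 and of Cd27 from 0.091 to 0.088. It raised that of Satb1 from 0.121 to 0.128, of Dntt from 0.391 to 0.457 and of Ikzf1 from 0.078 to 0.089. The median difference of all genes lay between -0.0085 and 0.0060 under the 4 scalings. Arrays, 3 per genotype, limit what can be called: the intervals of Flt3, Satb1 and Ikzf1 lie within 1.03-fold and 1.68-fold, and Dntt's spans 0.704 to 2.56.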
